A study of Homo sapiens with 4 samples.

Results

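The nuclear respiratory chain genes were taken as the protein-coding genes of GENCODE 44 whose symbols begin with NDUFA, NDUFB, NDUFC, NDUFS, NDUFV, UQCR, COX4, COX5, COX6, COX7, COX8, ATP5F, ATP5M or ATP5P, together with *SDHA*, *SDHB*, *SDHC* and *SDHD*. The rule used symbols alone and took 97 of 20046 protein-coding genes. By symbol they were 40 genes of complex I, 8 assembly factors of complex I (the NDUFAF genes), 4 genes of complex II, 9 of complex III, 17 of complex IV and 19 of complex V. *NDUFA4* is counted under complex I by its symbol, although its product is known as a subunit of complex IV. The 97 included the readthrough genes *ATP5MF-PTCD1* and *NDUFC2-KCTD14* and the intronless copies *ATP5MGL* and *UQCRHL*.

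The measurements came from 2 Flag ChIP-seq libraries, 1 of HK1 cells given PBS (the control) and 1 of HK1 cells given IFN-γ, each for 24 h. HK1 is an established nasopharyngeal carcinoma line. The cells of both groups carried Flag-tagged FLI1 as an overexpressed protein, so the antibody read the introduced protein and not the cells' own FLI1. Each condition had 1 library, so no effect of IFN-γ was tested, and every interval given here covers counting error only. The control list held 30819 peaks and the IFN-γ list 39654 peaks. The files hold no expression values, so the cell type was not checked against its markers, and the RNA level of these genes is not analysed here.

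The complexes of the respiratory chain sit in the inner membrane of mitochondria. Complex I and complex II pass electrons from NADH and succinate to ubiquinone, complex III hands them to cytochrome c, complex IV reduces oxygen, and complex V uses the proton gradient to make ATP. Most of the subunits are encoded in the nucleus, and many of their promoters are known to be bound by NRF1, by YY1 and by GABP, which is, like FLI1, a factor of the ETS family. ETS factors recognise a GGAA core, and FLI1 prefers it within a longer ETS octamer.

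The sequences here show the DNA under the strongest control summit of the member of each complex with the best mean rank by −log10 p over both libraries. Each run but that of *SDHC* is centred on the control summit. All are given 5′ to 3′ on the strand of the gene on GRCh38 and end no more than 30 bases into the reference (MANE Select) transcript. That limit cut the *SDHC* run short, so its summit lies 3′ of the middle. In *NDUFS3* (chr11:47578930-47579050, plus strand), *SDHC* (chr1:161314321-161314410, plus strand), *COX7C* (chr5:86617812-86617932, plus strand) and *ATP5PF* (chr21:25735587-25735707, minus strand), capitals mark each GGAA core on either strand. In *UQCRH* (chr1:46303598-46303718, plus strand), capitals mark an ETS octamer (CCGGAAGT or CAGGAAGT, either strand).
NDUFS3: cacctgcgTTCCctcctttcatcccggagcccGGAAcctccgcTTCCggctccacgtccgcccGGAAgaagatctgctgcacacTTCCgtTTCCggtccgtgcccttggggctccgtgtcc
SDHC: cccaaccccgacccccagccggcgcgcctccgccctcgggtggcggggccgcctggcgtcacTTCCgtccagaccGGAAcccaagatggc
UQCRH: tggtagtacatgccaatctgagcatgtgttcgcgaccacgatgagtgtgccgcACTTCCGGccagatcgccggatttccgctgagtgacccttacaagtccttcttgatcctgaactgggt
COX7C: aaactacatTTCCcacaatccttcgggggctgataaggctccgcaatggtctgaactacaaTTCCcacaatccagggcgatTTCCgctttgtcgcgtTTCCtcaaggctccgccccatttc
ATP5PF: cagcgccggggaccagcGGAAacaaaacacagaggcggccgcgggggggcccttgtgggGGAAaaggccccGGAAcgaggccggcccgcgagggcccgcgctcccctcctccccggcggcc
The *NDUFS3* run held 6 GGAA cores and no ETS octamer, *COX7C* held 4 cores, *ATP5PF* 3 and *SDHC* 2, and the octamer of *UQCRH* lay 3 bp from the summit.

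The promoter of *COX4I1*, the widely expressed isoform of a complex IV subunit, is shown because its protein often serves as a mitochondrial marker. It was taken from RefSeq on GRCh38.p14 (chr16:85799445-85799724, plus strand), and capitals again mark GGAA cores, of which it held 7, with 0 ETS octamers.
COX4I1: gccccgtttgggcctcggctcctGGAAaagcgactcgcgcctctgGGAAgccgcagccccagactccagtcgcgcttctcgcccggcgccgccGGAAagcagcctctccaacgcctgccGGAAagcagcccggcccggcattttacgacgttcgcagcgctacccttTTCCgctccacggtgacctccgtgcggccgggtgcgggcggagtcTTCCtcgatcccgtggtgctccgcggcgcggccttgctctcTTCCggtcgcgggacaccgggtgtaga

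Of the members with an ETS octamer within 100 bp of the control summit, the 4 with the best mean rank over both libraries besides *UQCRH* are shown with 20 bases on each side of the octamer, in capitals. They were chosen after their values were seen, and lie at chr19:19516195-19516242 (plus strand), chr11:63974581-63974628 (plus strand), chr4:139295837-139295884 (minus strand) and chr3:179604650-179604697 (plus strand) in the order printed.
NDUFA13: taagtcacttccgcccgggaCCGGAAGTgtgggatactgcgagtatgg
COX8A: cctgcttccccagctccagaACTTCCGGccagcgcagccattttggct
NDUFC1: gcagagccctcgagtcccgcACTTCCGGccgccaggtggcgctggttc
NDUFB5: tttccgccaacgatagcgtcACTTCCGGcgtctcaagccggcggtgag

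Most respiratory chain genes had a Flag-FLI1 peak at a promoter, here meaning a peak that overlapped the 3 kb either side of any annotated TSS of the gene. In the control library 79 of the 97 genes (81.4%) had one, against 61.9% of all protein-coding genes. In the IFN-γ library 80 (82.5%) had one, against 59.7% of all. Both libraries gave a peak at 75 members (77.3%, against 56.0%), and at least 1 library gave one at 84 (86.6%, against 65.6%). The readthrough gene *ATP5MF-PTCD1* shared its strongest peak with *ATP5MF* in both libraries and *NDUFC2-KCTD14* with *NDUFC2* in the control, so that the members stood on 77 distinct peaks in the control and 79 in the IFN-γ library. These shares are counts in 1 library each, with no test. Other large sets of housekeeping genes had still higher shares: of 78 mitochondrial ribosomal protein genes, 93.6% had a promoter peak in the control and 87.2% in the IFN-γ library, and of 87 cytosolic ribosomal protein genes, 95.4% and 93.1% had one.

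**Figure D1:**
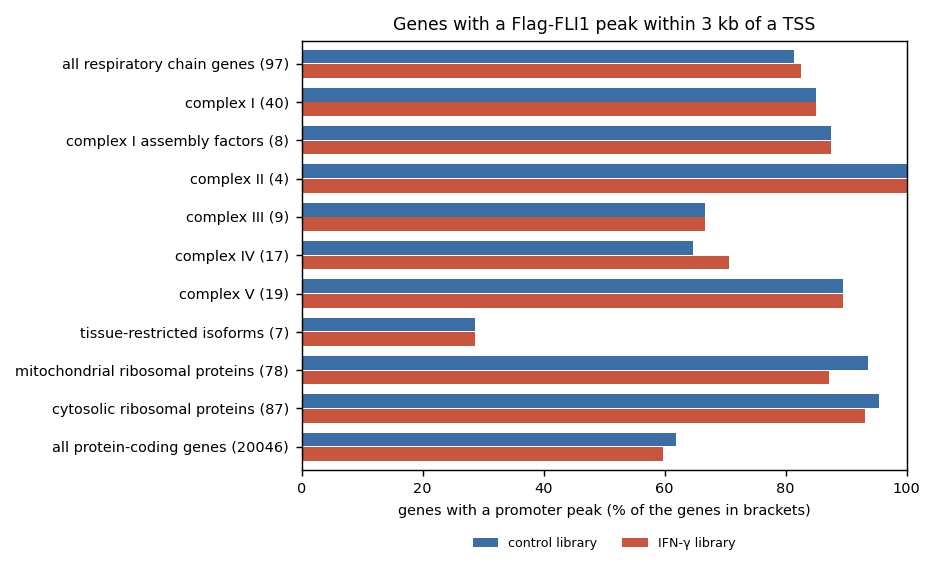
Bars give the percentage of genes with a Flag-FLI1 peak within 3 kb of a TSS in the control and IFN-γ libraries, with the number of genes of each group in brackets. All groups stood above all protein-coding genes (61.9% and 59.7%) except the 7 tissue-restricted isoforms, at 28.6% in each library. Complexes III and IV, at 66.7% and 64.7% in the control, stood closest above them. The genes of complex IV without a peak in either library were all tissue-restricted isoforms.

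In strength the members' peaks were close to those of other promoters. Strength is given as the fold enrichment deposited by the authors, the ratio of the fragments piled up at the summit to the local background, each plus 1, and as the rank of the peak by −log10 p in its list. The median fold enrichment of the members' strongest promoter peaks was 11.7 in the control library, with quartiles of 7.71 and 17.4, against a median of 10.5 over all protein-coding genes with such a peak. In the IFN-γ library it was 8.60, with quartiles of 5.70 and 17.3, against 9.12. The medians of the mitochondrial ribosomal protein genes were 12.7 and 9.35, and those of the cytosolic ribosomal protein genes 16.0 and 14.4. Of the members with a peak, 20 (25.3%) in the control and 18 (22.5%) in the IFN-γ library had one in the top 10% of the list, against 24.8% and 23.0% of all genes with a promoter peak, which is close to the background. The lowest folds were those of *NDUFB8* in the control, at 3.85 with 8 fragments at the summit, and *NDUFA3* in the IFN-γ library, at 3.16 with 10 fragments. The median summit of a member held 26 fragments in the control and 35 in the IFN-γ library.

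Complex I, the entry point for electrons from NADH, had a promoter peak at 34 of 40 genes in the control and at 34 in the IFN-γ library, and 37 had it in either. The background for the counts of each complex is 61.9% of all protein-coding genes in the control and 59.7% in the IFN-γ library. All 7 genes of its catalytic core, which carries the flavin and the iron-sulfur clusters, had a peak in the IFN-γ library, and 6 had one in the control. *NDUFS3*, a core subunit, had the strongest peak of all members. On chromosome 11 it ran from 47578518 to 47579327 in the control, with 189 fragments at the summit and a fold enrichment of 76.0 (rank 53), and from 47578636 to 47579401 in the IFN-γ library, with 226 fragments and a fold of 62.5 (rank 95). *NDUFS7*, which holds the last cluster before ubiquinone, had folds of 28.9 and 13.4 in the control and IFN-γ libraries, and *NDUFS1*, the largest core subunit, 22.2 and 15.5. *NDUFV1*, the flavin subunit, had folds of 11.0 and 5.33, and *NDUFS8*, an iron-sulfur protein, 10.7 and 4.38. *NDUFV2* had no control peak and a fold of 3.94 with 9 fragments in the IFN-γ library, 14825 bp from its reference TSS in the first intron. That peak is lost when the IFN-γ list is shortened to the length of the control list, which leaves 6 core genes with a peak.

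Among the supernumerary subunits of complex I, which surround the core, 28 of 33 genes had a peak in the control and 27 in the IFN-γ library. *NDUFA13*, also known as GRIM-19 for its link to retinoid- and interferon-induced cell death, came second among all members. Its peak on chromosome 19 ran from 19515948 to 19516758 in the control, with 117 fragments and a fold of 44.1 (rank 250), and from 19515736 to 19516684 in the IFN-γ library, with 214 fragments and a fold of 47.4 (rank 147). *NDUFB9* had folds of 35.6 and 23.5. Of the assembly factors, which build the complex without staying in it, 7 of 8 had a peak in each library. The best mean ranks over both libraries were those of *NDUFAF7* (23.5 and 31.8), *NDUFAF4* (13.1 and 22.0) and *NDUFAF3* (18.7 and 14.1). The summits of *NDUFAF3* lay nearest to *DALRD3* in both libraries, and the peaks at its reference TSS had folds of 12.3 and 6.21. In the control *NDUFAF8* stood second with a fold of 23.4.

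All 4 genes of complex II, succinate dehydrogenase, had a peak in each library. The control peak of *SDHC*, a membrane anchor, had its summit on the reference TSS, with 42 fragments and a fold of 19.7, and the IFN-γ peak had 44 fragments and a fold of 12.9. *SDHD*, the other anchor, had folds of 12.6 and 6.70, *SDHB*, the iron-sulfur subunit, 12.4 and 6.0, and *SDHA*, the flavin subunit, 6.36 and 4.55. The fold of each of the 4 was lower in the IFN-γ library, and the same held for 51 of the 75 members with a peak in both, against 67.3% of all such genes, which is close to the background. The IFN-γ peak of *SDHA* is lost when the IFN-γ list is shortened to the length of the control list.

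Complex III, which passes electrons from ubiquinol to cytochrome c, had a peak at 6 of 9 genes (66.7%) in each library. The shares of all protein-coding genes were 61.9% in the control and 59.7% in the IFN-γ library, so this is close to the background. *UQCRH*, the hinge protein, led with 70 fragments and a fold of 23.6 (rank 1216) in the control and 139 fragments and a fold of 33.4 (rank 553) in the IFN-γ library. *UQCRFS1*, the Rieske iron-sulfur protein, had folds of 10.7 and 8.30. The core protein gene *UQCRC1* had its strongest peaks at different sites, with a fold of 6.36 at 10808 bp from its reference TSS in the control and a fold of 9.57 at −4656 bp in the IFN-γ library. At its reference TSS the control fold was 2.99, and no IFN-γ peak was called. *UQCRC2*, the other core protein gene, had a peak in the IFN-γ library alone, with a fold of 5.55. *UQCRB*, a ubiquinone-binding subunit, and the intronless copy *UQCRHL* had none.

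Complex IV, cytochrome c oxidase, had a peak at 11 of 17 genes (64.7%) in the control, against 61.9% of all protein-coding genes, which is close to the background. In the IFN-γ library 12 (70.6%) had one, against 59.7%. The 5 genes of complex IV without a peak in either library were all tissue-restricted isoforms. *COX4I1* had 51 fragments and a fold of 23.6 in the control and 59 fragments and a fold of 17.3 in the IFN-γ library. *COX8A* had folds of 22.4 and 20.4, *COX7C* 21.3 and 17.3, *COX5B* 15.1 and 13.8, *COX5A* 13.7 and 6.47, *COX6C* 7.47 and 8.06. *COX7A2L*, which is known to help join complexes III and IV into supercomplexes, had a fold of 5.13 in the control and, at another site 1129 bp from its reference TSS, 6.98 in the IFN-γ library.

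Complex V, the ATP synthase, had a peak at 17 of 19 genes in each library. The best mean rank was that of *ATP5PF*, a subunit of the peripheral stalk, with 65 fragments and a fold of 22.5 in the control and 88 fragments and a fold of 22.2 in the IFN-γ library. The 3 genes for the identical c subunit of the membrane ring differed in fold: *ATP5MC2* had 23.5 and 19.8, *ATP5MC1* 14.4 and 11.5, and *ATP5MC3* 7.63 and 6.78. Genes of the catalytic head and the central stalk also differed. *ATP5F1B* (beta) had 4.27 and 5.59 by the peaks at its reference TSS, and *ATP5F1A* (alpha) 7.30 and 7.07 by peaks nearest to *HAUS1*. *ATP5F1C* (gamma) had 5.84 and 9.46, and *ATP5F1D* (delta) 16.1 and 7.62. The strongest control peak within a window of *ATP5F1B*, with a fold of 7.59, lay 10286 bp from its reference TSS and nearest to *BAZ2A*. *ATP5PO*, which links the head to the peripheral stalk, had no promoter peak. Its nearest peaks lay 60.4 kb away in the control and 15.4 kb away in the IFN-γ library.

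Of the 7 isoforms used in particular tissues or states, 2 had a promoter peak. The genes *COX4I2* (lung), *COX6A2* and *COX7A1* (heart and skeletal muscle), *COX7B2* and *COX8C* (testis) had no promoter peak in either library, while *COX6B2* (testis) and *NDUFA4L2* (induced in hypoxia) had one in both. The peaks of *COX6B2* lay 2565 bp and 2501 bp downstream of its reference TSS, with folds of 8.12 and 18.5, and those of *NDUFA4L2* lay at −2165 bp and −5981 bp, upstream of it, with folds of 6.81 and 3.92. The isoforms of the same subunits that most tissues use, *COX4I1*, *COX6A1*, *COX6B1*, *COX7A2*, *COX8A* and *NDUFA4*, each had a peak in both libraries, and *COX7B* had one in the IFN-γ library. Without isoforms, readthrough genes, copies and assembly factors, 73 of 78 subunit genes (93.6%) had a peak in at least 1 library. The share of all protein-coding genes, from which no such groups were left out, was 65.6%. The 5 that did not were *ATP5PO*, *NDUFA12*, *NDUFA5*, *NDUFS4* and *UQCRB*. The others of the 13 members without a peak were the copies *ATP5MGL* and *UQCRHL* and the assembly factor *NDUFAF5*. For the copies, reads shared with the parent gene may have been placed at either locus.

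*NDUFS4* and *NDUFA5* had peaks inside the gene but outside the promoter windows. In *NDUFS4* they lay in the first and second introns, 41.1 kb and 81.5 kb from the reference TSS, with folds of 8.28 and 15.5, in the IFN-γ library alone. The stronger of them lay 3.88 kb from the nearest annotated TSS of the gene, just outside its window. In *NDUFA5* a control peak with a fold of 3.53 lay over exon 5, 19.4 kb from the reference TSS.

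Of the 9 members with a promoter peak in 1 library only, *NDUFB8*, *NDUFC2*, *NDUFC2-KCTD14* and *UQCR10* had it in the control, with folds from 3.85 to 13.1 and 8 to 26 fragments (4.12% of the members, against 5.90% of all protein-coding genes). *COX7B*, *NDUFA3*, *NDUFA8*, *NDUFV2* and *UQCRC2* had it in the IFN-γ library, with folds from 3.16 to 6.84 and 9 to 23 fragments (5.15%, against 3.70%). Except for *NDUFC2* and its readthrough gene, these folds lay under the members' median in the same library, and a missing peak was only under the calling cutoff. *NDUFC2* and its readthrough gene shared the strongest of these peaks, with 26 fragments and a fold of 13.1 in the control, while the nearest IFN-γ peak lay 28.1 kb away. Among the members with a peak in the IFN-γ library only, the summit lay nearest to a TSS of the member itself for *NDUFV2* alone. In the control this held for *NDUFB8* and *NDUFC2-KCTD14*.

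Summits lay close to the starts of the members' transcripts. The median distance from the summit to the nearest TSS of the same gene was 39 bp in the control and 64 bp in the IFN-γ library. Within 100 bp of such a TSS lay 52 of 79 control summits (65.8%), against 47.4% over all protein-coding genes, and 48 of 80 IFN-γ summits (60%), against 42.6%. Within 1 kb of the reference TSS lay 69 summits in the control and 68 with IFN-γ. Over 3 kb from the reference TSS lay 8 in the control and 9 in the IFN-γ library, where the peak overlapped a promoter window of the gene. Several of these summits lay nearest to a TSS of another gene. For *NDUFV3* the strongest peak, with folds of 27.2 and 27.9, lay at −13795 bp and −14170 bp from the reference TSS, beside *WDR4*, and the peaks at its reference TSS had folds of 7.63 and 7.36. For *ATP5F1A* the strongest promoter peaks, at −6338 bp and −6409 bp, lay nearest to *HAUS1*, and the alpha subunit had no peak within 3 kb of its reference TSS in either library. For *NDUFS8* the strongest peaks lay nearest to *TCIRG1*, and those at the reference TSS had folds of 4.92 and 4.31.

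Many of these promoters are shared with a neighbour, so a peak cannot always be given to 1 gene. A coding gene on the other strand started within 1 kb upstream of 33 members (34.0%), against 12.7% of all protein-coding genes and 37.2% of the mitochondrial ribosomal protein genes. Of those 33, 29 had a promoter peak in the control and 31 in the IFN-γ library, and of all coding genes with such a neighbour 89.1% and 85.8% had one. Of the 64 members without such a neighbour, 50 (78.1%) and 49 (76.6%) had a peak, against 57.9% and 55.9% of all coding genes without one. The neighbours included other genes of mitochondria and translation: *NDUFB5* with *MRPL47*, *NDUFS6* with *MRPL36*, *SDHD* with *TIMM8B*, *NDUFA7* with *RPS28* and *NDUFS1* with *EEF1B2*.

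*ATP5PF* started 68 bp from *GABPA*, the gene of the DNA-binding subunit of GABP, and both genes stood on the same peak, which ran from 25734491 to 25735933 on chromosome 21 in the control and from 25734496 to 25736144 in the IFN-γ library. Its control summit lay at −743 bp from the *ATP5PF* reference TSS and its IFN-γ summit at −43 bp. *NDUFS3* started 98 bp from *KBTBD4*, and its strongest peak had its summit nearest to *KBTBD4* in the control and nearest to *NDUFS3* in the IFN-γ library. *NDUFB9* started 14 bp from *TATDN1*, *UQCRQ* 5 bp from *GDF9*, and *UQCRH* 82 bp from *LRRC41*.

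The summit lay nearest to a TSS of the member itself for 57 control peaks (72.2%) and 53 IFN-γ peaks (66.2%), against 75.9% and 75.5% over all genes with a promoter peak. When a peak was counted only for the gene of the TSS nearest its summit, 62 members (63.9%) kept a peak in the control and 58 (59.8%) in the IFN-γ library, against 50.7% and 48.8% of all protein-coding genes.

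The ETS octamer was found within 100 bp of the summit of 17 of the 79 control peaks (21.5%), against 16.9% over all genes with a promoter peak, and of 17 of the 80 IFN-γ peaks (21.2%), against 19.7%. The share in the IFN-γ library is close to the background. In all, 19 members had an octamer in at least 1 library, 15 of them in both. They were *NDUFA13*, *NDUFB4*, *NDUFB5*, *NDUFC1*, *NDUFS1*, *NDUFS5*, *NDUFS8* and *NDUFAF3* of complex I and its assembly, *SDHD* of complex II, *UQCR11*, *UQCRC1*, *UQCRH* and *UQCRQ* of complex III, *COX5A*, *COX5B* and *COX8A* of complex IV, and *ATP5MK*, *ATP5PD* and *ATP5PF* of complex V. The octamer of *ATP5PF* lay at its IFN-γ summit alone. Octamers were counted at the strongest peak, whose summit for *NDUFS1*, *NDUFS8*, *NDUFAF3* and *SDHD* lay nearest to another gene in both libraries. Members with the octamer had a median fold of 13.7 and those without it 11.1 in the control, against 17.5 and 9.58 over all genes. In the IFN-γ library the medians were 14.1 and 7.62, against 15.0 and 8.12. The bare GGAA core was present at 98.7% and 98.8% of the members' summits, against 94.8% and 97.4%. *NDUFS3*, with the strongest peaks of all, had GGAA cores and no octamer.

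The motifs of NRF1 and YY1 were more frequent at the members' summits than at those of all genes in both libraries, as a description with no test. The NRF1 motif (GCGCANGCG, either strand) was within 100 bp of 11 control summits (13.9%, against 6.58%) and 10 IFN-γ summits (12.5%, against 5.25%). Among the 14 members with it were *NDUFS7*, *NDUFAB1*, *SDHA*, *SDHD*, *UQCRFS1*, *COX6C* and *ATP5MC2*. The YY1 motif (AAGATGGCG) was at 5 control summits (6.33%, against 2.40%), among them those of *NDUFA7*, *NDUFAF8*, *NDUFB8* and *NDUFC1*, and at 4 IFN-γ summits (5.0%, against 2.13%). The SP1 motif (GGGCGG) was less frequent, at 46.8% of control summits against 58.8% and at 42.5% of IFN-γ summits against 49.4%. The ESRRA motif (TCAAGGTCA) was at the control summit of 1 member (1.27%, against 0.0967%) and the IFN-γ summit of 2 (2.5%, against 0.109%), *SDHD* and *ATP5MC3*.

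The promoters themselves, read without reference to peaks, gave a like picture for the NRF1 and YY1 motifs. For the ETS octamer the gap to all genes was wider than at the summits, and for the SP1 motif it was narrower. RefSeq promoters on GRCh38.p14, from 250 bases before to 50 bases after the start, matched 77 of the 97 members and 15345 protein-coding genes by symbol. The NRF1 motif was in 24 of the members' promoters (31.2%, against 11.1%), the YY1 motif in 8 (10.4%, against 2.80%), the ETS octamer in 13 (16.9%, against 9.23%) and the SP1 motif in 44 (57.1%, against 59.2%). Of the 8 members without a peak that were matched, 4 had an NRF1 motif, among them *ATP5PO* and *NDUFA12*, and 1, *COX7B2*, had an ETS octamer. A motif match is a run of letters and not a bound site.

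To set the libraries side by side, the pileup at each member's strongest control peak was compared with that of the strongest IFN-γ peak overlapping it, after dividing by the ratio of the depths, 1.46. This gave a ratio for 73 of the 75 members with peaks in both libraries, and *COX7A2L* and *NDUFA4L2* had no overlapping pair. The median ratio was 0.896, against 0.834 over the pairs of 10852 protein-coding genes. With the scale set so that the median over all genes is 1, the members' median was 1.07, so whether it lies below or above 1 depends on the scaling. A ratio over 1.5 was seen at 6 members (all genes 5.85%) and a ratio under 1/1.5 at 13 (all genes 25.6%). The 95% interval of the ratio held the median of all genes at 60 members, lay above it at 12 (all genes 11.3%) and below it at 1 (all genes 5.05%). With 1 library per condition these ratios compare the libraries and not the treatments.

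*NDUFB3*, a small supernumerary subunit of complex I, had the highest ratio. Its peak on chromosome 2 held 27 fragments in the control and 97 with IFN-γ, which gave a ratio of 2.47 (95% interval 1.60 to 3.93), with summits 2 bp apart. The next were *COX6B2* with 18 and 52 fragments (1.98, 1.14 to 3.60) and *COX7A2* with 26 and 71 (1.88, 1.182 to 3.06). *UQCRC1*, at the site 10808 bp from its reference TSS, had 16 and 38 fragments (1.63, 0.888 to 3.13) and *COX6B1* 24 and 54 (1.55, 0.939 to 2.61). The lower bounds of the first 3 lay above 1 and those of the last pair did not.

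*NDUFB10*, also a supernumerary subunit of complex I, had the lowest ratio, with 23 fragments in the control and 12 in the IFN-γ library (0.358, 0.162 to 0.750), and it was the 1 member whose interval lay below the median of all genes. *NDUFS6* had 27 and 18 fragments (0.458, 0.238 to 0.862), and the IFN-γ peaks of both are lost when that list is shortened to the length of the control list. *COX5A* had 31 and 22 (0.487, 0.269 to 0.869). *ATP5F1D*, the delta subunit of the ATP synthase, had 32 and 25 (0.537, 0.305 to 0.934) and *SDHB* 28 and 22 (0.540, 0.294 to 0.978). Among the strongest peaks, *NDUFS3* had a ratio of 0.821 (0.674 to 1.00), which holds the median of all genes, while *NDUFA13*, at 1.26 (0.998 to 1.59), and *UQCRH*, at 1.36 (1.02 to 1.84), were 2 of the 12 members whose interval lay above it. By complex, median ratios ran from 0.728 over the 4 pairs of complex II to 1.12 over the 5 pairs of complex III, with 0.823 for complex I, 0.906 for complex IV and 0.930 for complex V.

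Genes that belong to or work with the respiratory chain but fall outside the symbol rule were read in 4 lists of 69 genes in all. Of these, 66 had a promoter peak in the control and 64 in the IFN-γ library, against 61.9% and 59.7% of all protein-coding genes. All 17 genes that regulate the chain or copy and transcribe mitochondrial DNA had a peak in each library. The genes of GABP had folds of 22.5 and 22.2 (*GABPA*), 58.0 and 45.5 (*GABPB1*) and 22.0 and 37.5 (*GABPB2*). *ESRRA*, a nuclear receptor that acts with PGC-1 coactivators on these promoters, had 32.8 and 46.2, and *TFAM*, which packages mitochondrial DNA, 26.9 and 15.7. *NRF1* itself had 7.12 and 7.57 and *YY1* 14.1 and 7.04.

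Of 34 assembly factors outside the rule, 33 had a peak in the control and 31 in the IFN-γ library, and *NUBPL* had none. The highest control folds, given with the IFN-γ folds, were those of *SDHAF3* (64.5 and 32.2), *SDHAF2* (48.2 and 57.3), *FOXRED1* (44.3 and 25.6), *SCO1* (43.5 and 33.0) and *COX17* (38.1 and 32.2), and in the IFN-γ library *TIMMDC1*, at 36.2, came second after *SDHAF2*. All 5 electron carrier genes had a control peak and 4 an IFN-γ peak. *CYC1*, which encodes a subunit of complex III, had folds of 4.88 and 3.82, and *CYCS* had 6.14 in the control alone. Of 13 genes of the tricarboxylic acid cycle, which supplies the chain with electrons, 11 had a control peak and 12 an IFN-γ peak. *MDH2* (46.6 and 51.4) and *IDH3B* (45.7 and 54.8) had the highest folds there, and *IDH3G* had no peak.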

How the data were processed

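By the methods, the authors used Cutadapt 1.18 for trimming, Bowtie2 2.3.4.1 for alignment of paired reads (GRCh38), picard MarkDuplicates against duplicates, and MACS 2.1.2 for peaks, per library, with a stated p-value cutoff of 0.01. Whether the input served in calling is not given in the sources used here, and the 2 input libraries are not analysed here. The deposited lists hold, per peak, the fold enrichment (a ratio to the local background), −log10 of the p-value and q-value, and the summit offset. The lowest deposited −log10 p was 3.52 (control) and 3.46 (IFN-γ), and the lowest −log10 q 1.30 and 1.32.

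Pileup and background were solved from fold and −log10 p (largest relative error 6.21e-06), and the ratio of the lowest backgrounds, 1.46, was taken as relative depth, since the lists give no read totals. TSSs came from GENCODE 44. The strongest peak was that with the highest −log10 p, overlap was at least 1 bp, and motifs were read from GRCh38 within 100 bp of summits. Intervals are exact (Clopper-Pearson for ratios, Poisson for folds) at 95%. The member genes, lists and alternatives were chosen with earlier results of these data known. The genes named are those listed by role, the 3 with the best mean rank per complex, those with a peak in 1 library or none, and the 5 highest and lowest ratios; others, and the pathway genes quoted with values, were chosen after their values were seen. The values of 1 member gene are counted in the totals and not reported singly here. The assignment of given peaks to promoters, nearest TSS, motif search and pileup recovery were tested on simulated data and returned 100% of known answers. The simulated pileups followed the same Poisson formula that was solved, and peak calling itself was not tested. Python 3.11.15, scipy 1.17.1, pandas 2.3.3 and pysam 0.24.0 were used.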

Additional observations from a re-analysis of the deposited data

How the results depend on the processing

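The counts of members with a promoter peak stayed within 1.5 times their value under every alternative tried, and the lowest of them, with peaks given only to the nearest TSS, was 51 of 97 in both libraries, against 43.1% of all protein-coding genes. Of 55 comparisons of summary values with an alternative, 49 stayed the same and 6 moved. Scaling to a median ratio of 1 moved the members' median ratio to 1.07, the number over 1.5 to 14 (all genes 13.5%) and the number under 1/1.5 to 6 (all genes 11.7%). The ratio of deposited folds moved the number under 1/1.5 to 20 (all genes 33.7%). Counting the bare GGAA core in place of the octamer gave 78 control and 79 IFN-γ members, by construction. For named members 263 comparisons could be made, with the strongest peak chosen by fold or with lists of equal length. All kept within their counting intervals. Shortening a list cannot change a strongest peak that stays in it, so the comparisons with lists of equal length could not have moved. Such lists left no IFN-γ peak at 6 named members, *NDUFA3*, *NDUFA4L2*, *NDUFB10*, *NDUFS6*, *NDUFV2* and *SDHA*. No paired analysis was possible because neither treatment was repeated, and for the same reason no library could be left out. A median member summit of 26 or 35 fragments limits the precision of single ratios.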
